A study of Mus musculus with 6 samples.

Results

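The macrophage and myeloid marker genes are 35 mouse gene symbols known as markers of macrophages, monocytes and related phagocytes. Their rows were taken by gene symbol, with no filter on level, and the row with the highest mean was used where a symbol was listed more than once. Of the 35 symbols, 34 were found among the 23099 symbols (23422 rows) measured, and Spi1 was not found under that symbol. Polyadenylated RNA of whole pancreas from 8-week-old mice was sequenced in 3 Ela1-Myc and 3 WT libraries. Ela1-Myc mice carry a Myc transgene driven by the elastase 1 promoter, which is active in acinar cells, the enzyme-secreting cells of the pancreas. WT mice are the wild-type controls; the labels name no strain, no sex, no agent and no other allele for either group. The study asked what continued Myc expression does to acinar maturation. The labels do not say whether each library is from its own animal, so the p-values below measure only the spread between these samples, and replicate numbers are names that do not pair libraries.

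Macrophages are tissue phagocytes that depend on the growth factor receptor Csf1r and on the transcription factor PU.1. They take up dying cells and debris, degrade them in lysosomes, and sense them through Fc receptors, lectins, scavenger receptors and integrins, many of which signal through the adaptor proteins Tyrobp and Fcer1g. Tissue macrophages are also a main source of C1q, the recognition molecule of the classical complement pathway. In the pancreas they lie between the acini and around the islets and ducts, and they are known to accumulate in pancreatitis and in tumours. In RNA of a whole tissue, more cells of a type and more RNA per cell cannot be told apart.

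Levels are given as the deposited adjusted FPKM (fragments counted per kilobase of transcript length and relative to all those mapped) divided by 100000. FPKM is a value per length, but how it was adjusted is not stated, so whether levels stay comparable between genes was not tested. The commonest value above 0 was shared by 4459 rows in each WT library and by 4 rows in each Ela1-Myc library. In WT replicates 1 to 3 that value was 464, 823 and 174 before the division. The deposited values thus differed in form between the groups, and whether levels stay comparable between the groups was not tested either. The acinar genes Ctrb1, Cela2a, Cela1 and Clps were among the most abundant genes of every library, and a list of 37 digestive enzyme genes made up 61.8% to 74.6% of the summed level in the Ela1-Myc libraries and 90.8% to 91.1% in the WT libraries. Myc had 52.0, 34.4 and 34.2 in Ela1-Myc replicates 1 to 3, and 0, 4.10 and 0 in WT replicates 1 to 3. A listed 0 may be a failed estimate: Gapdh, a glycolytic gene that every cell uses, had 347, 465 and 343 in Ela1-Myc replicates 1 to 3, but 0, 69.2 and 0 in WT replicates 1 to 3. Of the 8802 genes tested, 0, 29 and 13 were at 0 in Ela1-Myc replicates 1 to 3, and 1061, 592 and 1426 in WT replicates 1 to 3. The RNA integrity number was 8.8, 7.2 and 8.3 in Ela1-Myc replicates 1 to 3, and 7.3, 7.3 and 7.1 in WT replicates 1 to 3, per the sample labels, but the protocol text states a minimum that 5 of these 6 values do not reach. Because of such differences between libraries, values are given on 2 scales: the deposited one, and one in which each library was divided by a median-of-ratios factor, called scaled. The median log2 change of all tested genes was 1.22 on the deposited scale and 0.22 on the scaled one, so a scaled change is one relative to most genes. WT replicate 1 stood apart from the other WT libraries in genes of other leukocytes, which are described last. Without it, 31 of 31 markers in the fit were called higher by the limma test used below, beside 5466 of all 9314 genes. After scaling 29 of 31 markers were, beside 1741 of 9314 genes. Leaving out any other library gave fewer scaled marker calls than the fit of all 6 libraries, as given below.

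Nearly all the marker genes stood higher in the Ela1-Myc libraries. The summed level of the 34 genes was 774, 2033 and 1720 in Ela1-Myc replicates 1 to 3, against 62.98, 77.1 and 1.88 in WT replicates 1 to 3. On the scaled values it was 471, 1294 and 803 in Ela1-Myc replicates 1 to 3, against 152, 86.4 and 3.09 in WT replicates 1 to 3, so the groups lay apart on both scales but closer on the scaled one. None of the 34 genes was at 0 in an Ela1-Myc library, whereas 16, 12 and 27 of them were listed at 0 in WT replicates 1 to 3. In 33 of 34 genes, all but Vsig4, the 3 Ela1-Myc libraries lay above the 3 WT libraries on the deposited scale, beside 49.7% of all symbols. On the scaled values 26 of 34 genes did so, beside 20.5% of all symbols. Among tested genes the shares were 75.3% on the deposited scale, where 30 tested members did so, and 28.9% on the scaled one, where 26 did.

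**Figure D1:**
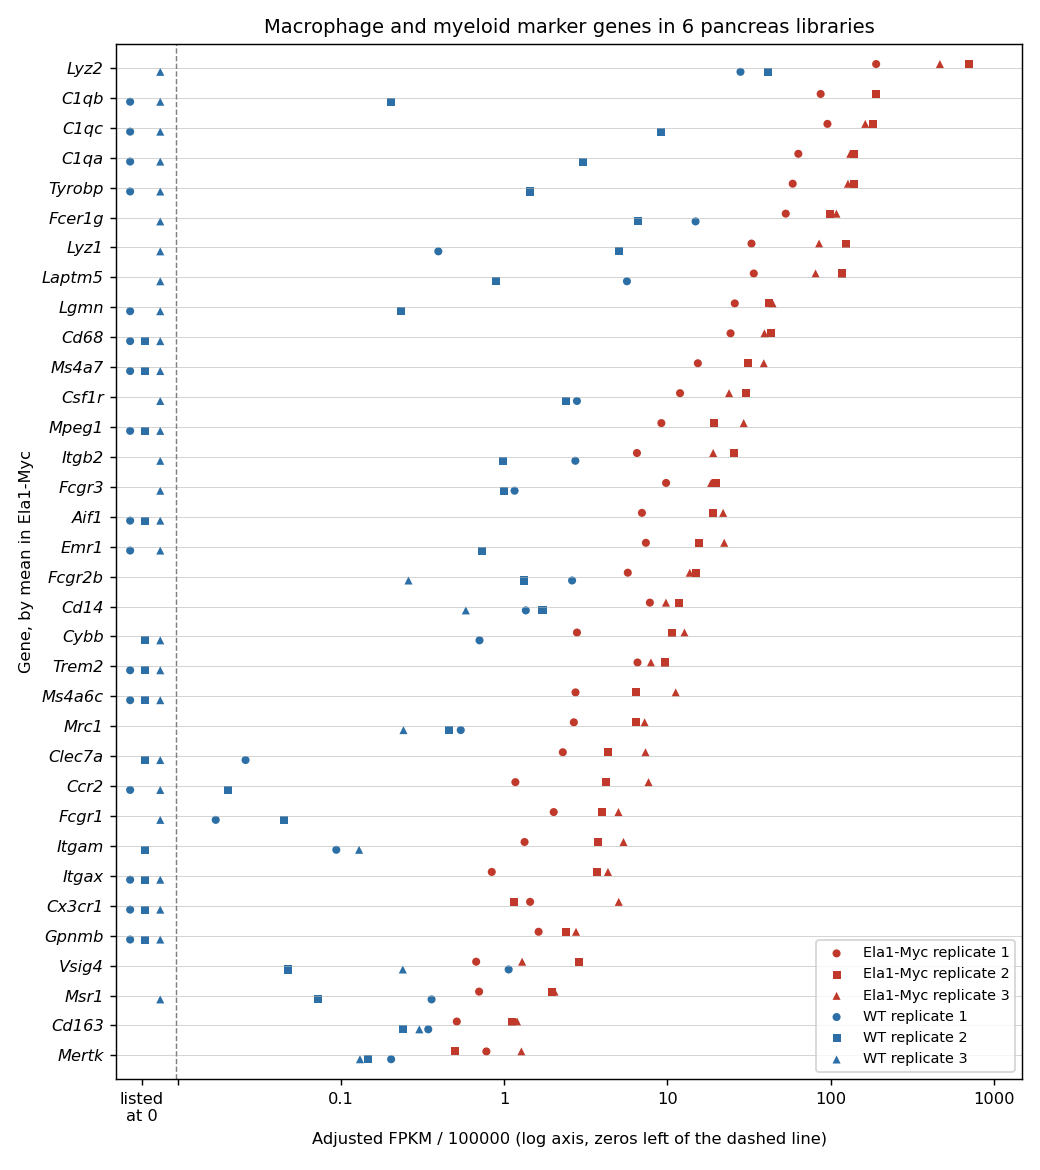
Level of each of the 34 marker genes (deposited adjusted FPKM divided by 100000, log axis) in each Ela1-Myc library (red) and each WT library (blue), with listed zeros left of the dashed line and symbols marking replicates 1 to 3. Red points lie right of the blue ones for every gene but Vsig4, and 9 genes have all 3 WT points at 0.

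A total of 31 of the 34 genes passed a filter that asked for an average of 1 or more across the 6 libraries, while Cd163, Msr1 and Mertk did not. With limma on log2(level + 1) and p-values adjusted over all tested genes, all 31 were called higher and 0 lower at an adjusted p of 0.05, where 70.2% of all tested genes were called higher and 0.239% lower. On the scaled values 25 of the 31 were called higher and 0 lower, beside 17.1% of tested genes called higher and 7.1% called lower. The median log2 change of the 31 genes was 3.21 on the deposited scale and 2.28 on the scaled one. Of these, 21 had a WT mean under 1 and passed the filter through their Ela1-Myc values, so those had to be higher. Of the 10 members with a WT mean of at least 1, 10 were called higher on the deposited scale and 5 on the scaled one, beside 55.7% and 4.24% of the 5359 genes with such a WT mean. Of the 31 genes, 9 were listed at 0 in all WT libraries, and for these no fold is given: Cd68, Mpeg1, Aif1, Itgax, Ms4a7, Ms4a6c, Cx3cr1, Trem2 and Gpnmb. The 22 tested members above 0 in at least 1 WT library had a median log2 change of 3.27, and 2.17 after scaling, and 16 of them were called after scaling.

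The 6 genes not called after scaling were Csf1r, Lyz2, Fcer1g, Itgb2, Fcgr2b and Vsig4, and in all 6 WT replicate 1 was the highest WT library on that scale. The same 6 were the ones not called when digestive enzymes were left out and the remaining totals were made equal, which gave 25 calls beside 22% of genes. Quantile normalization gave 17 calls beside 11.3% of genes. Without the filter, 32 of 34 genes were called on the deposited scale beside 36.7% of all symbols, and 19 of 34 on the scaled one beside 7.63%. Restricting the scaled fit to genes above 0 in every library left 4 members, 2 of them called, beside 9.25% of those genes. The scaled calls also depended on single libraries. Without WT replicate 3, 18 of 32 markers in the fit were called, beside 945 of 9160 genes called higher. Without Ela1-Myc replicate 2 it was 14 of 29 markers, beside 530 of 8431 genes. Without Ela1-Myc replicate 3 it was 13 of 27 markers, beside 429 of 7947 genes. The 13 genes called on the scaled values in every fit that left out a library were C1qa, C1qb, Cd68, Emr1, Mpeg1, Tyrobp, Aif1, Ms4a7, Ms4a6c, Trem2, Fcgr1, Lgmn and Clec7a. All of them but C1qa had a WT mean under 1. They passed the filter through their Ela1-Myc values and had to be higher, so these calls are no independent support.

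**Figure D2:**
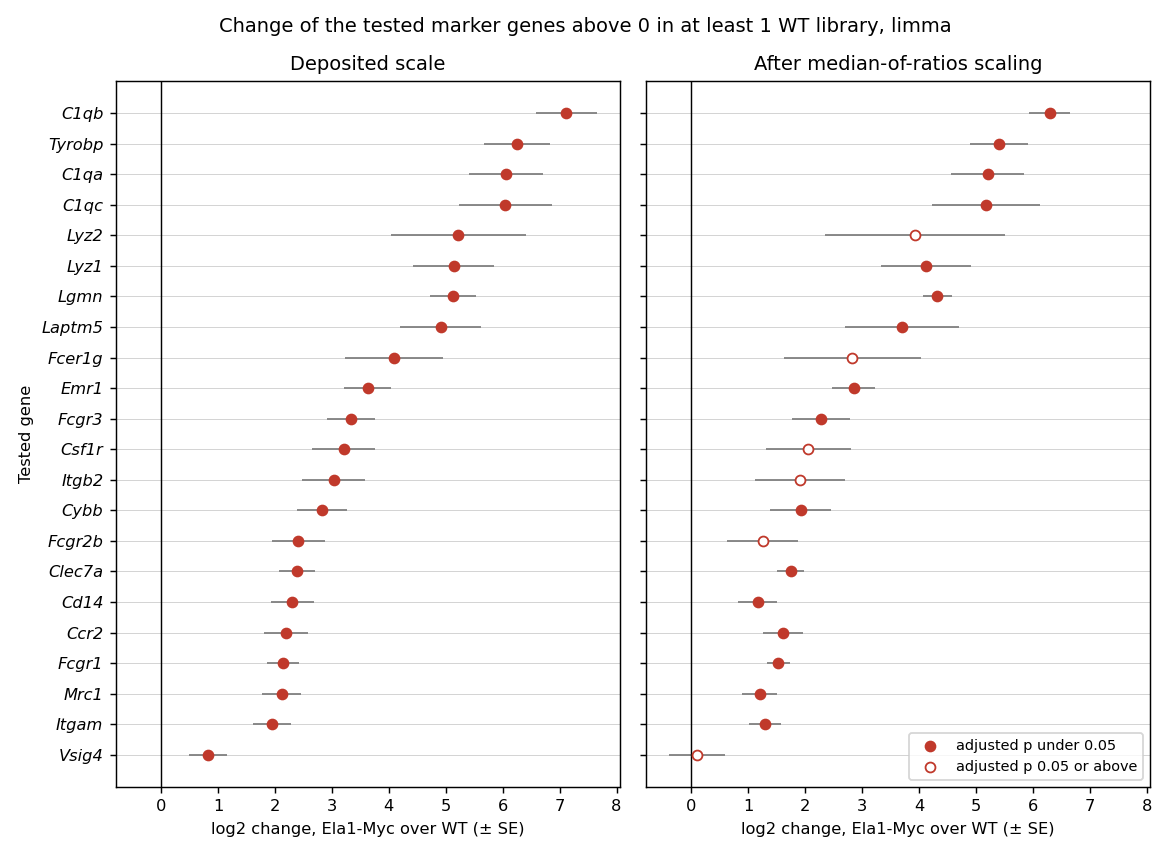
log2 change on the log2(level + 1) scale, Ela1-Myc over WT, with its standard error from limma, for the 22 tested marker genes above 0 in at least 1 WT library, on the deposited scale (left) and after median-of-ratios scaling (right). Filled points have an adjusted p under 0.05: all 22 on the left and 16 on the right, where Vsig4 lies nearest 0 at 0.10.

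The 3 chains of complement C1q, which together form the molecule that binds immune complexes and dying cells, were among the 4 most abundant markers in Ela1-Myc pancreas by mean level. C1qa (chr4:136895916-136898844, GRCm38) had 63.5, 138.5 and 132.2 in Ela1-Myc replicates 1 to 3, and 0, 3.04 and 0 in WT replicates 1 to 3. C1qb (chr4:136880145-136886177) had 87.0, 190.6 and 190.4 in Ela1-Myc replicates 1 to 3, and 0, 0.202 and 0 in WT replicates 1 to 3. C1qc (chr4:136889802-136892914) had 95.7, 183 and 163 in Ela1-Myc replicates 1 to 3, and 0, 9.15 and 0 in WT replicates 1 to 3. The groups did not overlap for any chain, Ela1-Myc replicate 1 was the lowest of its group, and WT replicate 2 alone among the WT libraries listed the chains above 0. The limma log2 changes were 6.06 ± 0.64 for C1qa (SE, adjusted p = 9.36e-06), 7.12 ± 0.54 for C1qb (adjusted p = 1.23e-06) and 6.04 ± 0.82 for C1qc (adjusted p = 5.68e-05). After scaling they were 5.21 ± 0.65 (adjusted p = 0.00314), 6.29 ± 0.36 (adjusted p = 0.000406) and 5.18 ± 0.95 (adjusted p = 0.0121), in the same order. The 3 genes lie side by side on chromosome 4 and their transcripts share no 40-base stretch with another gene, and their levels kept close proportions in Ela1-Myc pancreas. C1qa stood at 73.0%, 72.6% and 69.4% of C1qb in Ela1-Myc replicates 1 to 3, and C1qc at 110.0%, 95.8% and 85.7% of C1qb.

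The 250 bases before the start of each gene were read from RefSeq sequence (GRCm38.p6), which holds a window for 27 of the 34 genes. GAGGAA, the core of the box that PU.1 binds, was searched on both strands and was found in 12 of the 27 windows (44.4%), beside 6252 of all 27025 windows (23.1%). The E box CACGTG, the letters that Myc binds, reads the same on both strands and was found in 0 of the 27 windows, beside 1634 of all windows (6.05%). A match is a description of these letters, not a measured binding site, and no match says nothing of the rest of the locus. The 5 most abundant markers in Ela1-Myc pancreas with a PU box are shown, 5′ to 3′ on the gene's strand and ending at the base before the start, with the box in capitals (TTCCTC is the same box on the other strand). They are C1qb (minus strand, chr4:136886201-136886450), C1qc (minus strand, chr4:136892915-136893164), Laptm5 (plus strand, chr4:130913066-130913315), Cd68 (minus strand, chr11:69666171-69666420) and Fcgr3 (minus strand, chr1:171059404-171059653).
C1qb: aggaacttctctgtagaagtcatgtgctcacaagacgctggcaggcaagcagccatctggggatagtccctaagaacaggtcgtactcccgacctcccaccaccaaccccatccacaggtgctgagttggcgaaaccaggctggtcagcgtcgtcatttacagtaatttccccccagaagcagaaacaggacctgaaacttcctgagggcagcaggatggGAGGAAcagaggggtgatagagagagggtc
C1qc: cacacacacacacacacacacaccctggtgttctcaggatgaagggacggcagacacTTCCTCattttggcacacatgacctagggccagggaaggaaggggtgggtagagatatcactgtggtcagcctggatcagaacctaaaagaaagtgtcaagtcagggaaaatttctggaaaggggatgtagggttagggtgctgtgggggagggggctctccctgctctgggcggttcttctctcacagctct
Laptm5: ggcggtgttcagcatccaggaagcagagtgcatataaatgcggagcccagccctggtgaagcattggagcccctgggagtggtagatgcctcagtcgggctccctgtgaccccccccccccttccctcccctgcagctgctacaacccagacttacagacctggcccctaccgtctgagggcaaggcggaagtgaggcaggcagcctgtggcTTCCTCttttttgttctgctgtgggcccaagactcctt
Cd68: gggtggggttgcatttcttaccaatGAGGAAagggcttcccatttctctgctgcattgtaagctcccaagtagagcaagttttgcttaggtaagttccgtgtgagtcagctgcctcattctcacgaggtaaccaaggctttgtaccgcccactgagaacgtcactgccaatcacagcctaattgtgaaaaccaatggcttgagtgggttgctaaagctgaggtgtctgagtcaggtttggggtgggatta
Fcgr3: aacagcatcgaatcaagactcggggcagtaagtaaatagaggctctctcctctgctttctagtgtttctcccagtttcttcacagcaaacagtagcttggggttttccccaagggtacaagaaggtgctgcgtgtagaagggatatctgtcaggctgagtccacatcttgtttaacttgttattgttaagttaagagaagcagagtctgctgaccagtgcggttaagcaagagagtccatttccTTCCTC
The box began 30 bases before the start in C1qb, 193 in C1qc, 38 in Laptm5, 225 in Cd68 and 6 in Fcgr3.

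PU.1 itself, the transcription factor that specifies myeloid cells, is listed in the files under Sfpi1, an older symbol of Spi1 (chr2:91096797-91115756), and is described here beside the 34 genes. Sfpi1 had 6.10, 12.5 and 14.8 in Ela1-Myc replicates 1 to 3, and was listed at 0 in each WT library. It was called higher on the deposited scale (limma adjusted p = 4.95e-06) and on the scaled one (adjusted p = 0.00120). Sfpi1 passed the filter through its Ela1-Myc values and had to be higher, so these calls are no independent support. Csf1r, the receptor that macrophages need to survive, had 11.96, 30.4 and 23.9 in Ela1-Myc replicates 1 to 3, and 2.79, 2.39 and 0 in WT replicates 1 to 3. The groups did not overlap, and the log2 change was 3.21 ± 0.56 (SE, adjusted p = 0.000305). After scaling the change was 2.06 ± 0.75 (adjusted p = 0.0863), which missed the threshold. Emr1, the gene of the F4/80 antigen now named Adgre1, had 7.38, 15.7 and 22.3 in Ela1-Myc replicates 1 to 3, against 0, 0.734 and 0 in WT replicates 1 to 3. It was highest in Ela1-Myc replicate 3 and was called on both scales, with log2 changes of 3.63 ± 0.42 (adjusted p = 1.83e-05) and 2.85 ± 0.38 on scaled values (adjusted p = 0.00378).

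The ligands of the receptors among the markers were read from the same fit, chosen for their pairing with Csf1r, Ccr2 and Cx3cr1 after values had been seen. Csf1, a ligand of Csf1r, averaged 3.75 ± 1.05 in Ela1-Myc libraries and 0.922 ± 0.555 in WT libraries (SD, n = 3 each). The other ligand, Il34, had 2.19, 4.59 and 4.27 in Ela1-Myc replicates 1 to 3, and 0.880, 0.729 and 0 in WT replicates 1 to 3. Both were called higher on the deposited scale (limma adjusted p = 0.00264 for Csf1 and 0.000858 for Il34), and neither after scaling, where the groups overlapped (adjusted p = 0.554 and 0.222). Ccl2, a ligand of Ccr2 that draws monocytes from the blood, had 1.82, 4.71 and 3.97 in Ela1-Myc replicates 1 to 3 and was listed at 0 in each WT library. Ccl7, another ligand of Ccr2, had 1.54, 4.29 and 3.77 in Ela1-Myc replicates 1 to 3 and was likewise at 0 in WT. Both stayed called after scaling (adjusted p = 0.00705 for Ccl2 and 0.00920 for Ccl7). Csf1, Il34, Ccl2 and Ccl7 each had a WT mean under 1 and passed the filter through their Ela1-Myc values. They had to be higher, so these calls are no independent support. Cx3cl1, the ligand of Cx3cr1, did not pass the filter, with 1.497, 1.27 and 2.38 in Ela1-Myc replicates 1 to 3 and 0, 0.248 and 0.0317 in WT replicates 1 to 3.

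Lyz2, the lysozyme M gene whose enzyme cleaves bacterial cell walls, was the most abundant marker in all libraries but WT replicate 3. Lyz2 (chr10:117277541-117282272) had 190.3, 704 and 468 in Ela1-Myc replicates 1 to 3, and 28.1, 41.3 and 0 in WT replicates 1 to 3. The groups did not overlap, but WT replicates 1 and 2 carried clear levels and Ela1-Myc replicate 2 had 3.70 times the level of Ela1-Myc replicate 1. The log2 change was 5.22 ± 1.19 (SE, limma adjusted p = 0.00185) and after scaling 3.93 ± 1.59 (adjusted p = 0.112). Lyz1 (chr10:117287795-117292868), the lysozyme P gene beside it, is known from Paneth cells of the mouse gut. Its levels were 32.8, 125 and 85.1 in Ela1-Myc replicates 1 to 3, and 0.395, 5.06 and 0 in WT replicates 1 to 3, with no overlap. Lyz1 was called on both scales, with log2 changes of 5.14 ± 0.71 (adjusted p = 6.58e-05) and 4.12 ± 0.78 on scaled values (adjusted p = 0.0136). The Lyz1 level was 17.2%, 17.8% and 18.2% of the Lyz2 level in Ela1-Myc replicates 1 to 3, and 1.41% and 12.3% in WT replicates 1 and 2.

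These 2 genes share a part of their sequence, and the Lyz1 values may be uncertain for that reason. The coding sequences are each 444 bases long and differ at 22 positions (95.05% identity), and 24.3% of the 40-base stretches of Lyz1 also occur in Lyz2. The first 120 coding bases of each (GENCODE M21, GRCm38, minus strand of chromosome 10) are shown because they show how small the difference is, with the 11 differing bases in capitals.
Lyz1: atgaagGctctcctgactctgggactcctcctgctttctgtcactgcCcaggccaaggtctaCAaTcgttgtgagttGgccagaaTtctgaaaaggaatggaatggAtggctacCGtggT
Lyz2: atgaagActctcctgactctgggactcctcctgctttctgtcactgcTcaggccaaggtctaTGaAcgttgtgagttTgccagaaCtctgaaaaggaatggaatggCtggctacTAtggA
How the deposited values divide reads that match both genes is not stated in the labels or files.

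The adaptors Tyrobp (DAP12) and Fcer1g carry the signalling motif for receptors that have none. Tyrobp (chr7:30413788-30417579) had 58.6, 139 and 128 in Ela1-Myc replicates 1 to 3, and 0, 1.44 and 0 in WT replicates 1 to 3. It was called on both scales, with log2 changes of 6.25 ± 0.58 (SE, adjusted p = 3.31e-06) and 5.40 ± 0.51 on scaled values (adjusted p = 0.00120). Fcer1g (chr1:171229572-171234349) had 53.2, 99.7 and 109 in Ela1-Myc replicates 1 to 3, and 14.9, 6.62 and 0 in WT replicates 1 to 3. Its change was 4.09 ± 0.87 on the deposited scale (adjusted p = 0.00118) and 2.83 ± 1.21 after scaling (adjusted p = 0.128), where WT replicate 1 at 35.9 lay above Ela1-Myc replicate 1 at 32.3. In WT replicate 1 Fcer1g had 14.9 while Tyrobp was listed at 0. That 0 may be a failed estimate, since Gapdh was at 0 in the same library.

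Receptors for lipids, IgG and glucans follow, not all of which need these adaptors. Trem2, a lipid-sensing receptor coupled to Tyrobp, had 6.56, 9.64 and 7.93 in Ela1-Myc replicates 1 to 3. It was at 0 in every WT library. Trem2 had, with Cd14, the most even levels of the Ela1-Myc group on the deposited scale, and it was called on both scales (adjusted p = 2.80e-06, and 0.000887 after scaling). Fcgr3 (chr1:171051169-171059403), an activating receptor for the constant part of IgG, had 9.82, 19.9 and 18.6 in Ela1-Myc replicates 1 to 3, and 1.16, 0.998 and 0 in WT replicates 1 to 3. Fcgr1, the high-affinity IgG receptor, had 2.01, 3.96 and 5.01 in Ela1-Myc replicates 1 to 3, and 0.0171, 0.0445 and 0 in WT replicates 1 to 3. Both lay apart between the groups and were called on both scales, with log2 changes of 3.33 ± 0.43 for Fcgr3 (adjusted p = 4.02e-05) and 2.13 ± 0.29 for Fcgr1 (adjusted p = 5.23e-05). Fcgr2b, the inhibitory IgG receptor that B cells also carry, averaged 11.4 ± 4.99 in Ela1-Myc libraries and 1.40 ± 1.18 in WT libraries (SD, n = 3 each). Its log2 change was 2.41 ± 0.47 (adjusted p = 0.000662), and 1.25 ± 0.62 after scaling (adjusted p = 0.178), where the groups overlapped. Fcgr3 shares 15.0% of its 40-base stretches with other genes, mainly Fcgr2b, so a part of these reads can be divided either way. Clec7a, the lectin Dectin-1 that binds fungal glucans, had 2.29, 4.33 and 7.34 in Ela1-Myc replicates 1 to 3, and 0.0260, 0 and 0 in WT replicates 1 to 3, and it was called on both scales (adjusted p = 5.27e-05, and 0.00450 after scaling).

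Genes of uptake and lysosomal breakdown included several that no WT library listed above 0. Cd68, a lysosomal membrane glycoprotein of macrophages, had 24.4, 42.9 and 39.3 in Ela1-Myc replicates 1 to 3 (adjusted p = 1.42e-06, and 0.000406 after scaling). Mpeg1, the pore-forming perforin-2 of phagosomes, had 9.19, 19.4 and 29.4 in Ela1-Myc replicates 1 to 3 (adjusted p = 4.45e-06, and 0.00120 after scaling). Gpnmb, a glycoprotein of lipid-laden and degrading macrophages, had 1.62, 2.39 and 2.76 in Ela1-Myc replicates 1 to 3 (adjusted p = 7.35e-05, and 0.00313 after scaling). All 3 were thus present in each Ela1-Myc library and at 0 in each WT library. Lgmn, the lysosomal protease legumain, had 25.9, 41.9 and 44.1 in Ela1-Myc replicates 1 to 3, and 0, 0.234 and 0 in WT replicates 1 to 3, and its log2 change was 5.12 ± 0.41 (adjusted p = 1.45e-06) and 4.32 ± 0.26 after scaling (adjusted p = 0.000406). Laptm5 (chr4:130913334-130936148), a lysosomal membrane protein of blood cells, had 33.9, 118 and 80.9 in Ela1-Myc replicates 1 to 3, and 5.65, 0.885 and 0 in WT replicates 1 to 3. Its change was 4.91 ± 0.71 (adjusted p = 9.04e-05) and 3.70 ± 1.00 after scaling (adjusted p = 0.0396). Cybb, the catalytic subunit of the phagocyte oxidase that makes superoxide, had 2.79, 10.6 and 12.7 in Ela1-Myc replicates 1 to 3, and 0.706, 0 and 0 in WT replicates 1 to 3. Cybb was called on both scales (adjusted p = 0.000140, and 0.0437 after scaling), though on the scaled values WT replicate 1 at 1.701 lay level with Ela1-Myc replicate 1 at 1.698.

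The markers of tissue-resident macrophages included the 4 genes with the lowest mean in Ela1-Myc pancreas (Mertk, Cd163, Msr1 and Vsig4), 1 of which did not separate the groups. Mrc1, the mannose receptor CD206, averaged 5.45 ± 2.44 in Ela1-Myc libraries and 0.413 ± 0.155 in WT libraries (SD, n = 3 each). Its groups lay apart, and limma gave 2.11 ± 0.34 log2 units (SE, adjusted p = 0.000171) and 1.20 ± 0.32 on scaled values (adjusted p = 0.0360). Vsig4, the complement receptor CRIg of resident macrophages, had 0.673, 2.87 and 1.29 in Ela1-Myc replicates 1 to 3, and 1.07, 0.0476 and 0.239 in WT replicates 1 to 3. WT replicate 1 lay above Ela1-Myc replicate 1, so the groups overlapped. The log2 change of Vsig4 was 0.82 ± 0.33 on the deposited scale (adjusted p = 0.0383) and 0.10 ± 0.49 after scaling (adjusted p = 0.897), it turned to -0.53 under quantile normalization (adjusted p = 0.332), and the call was lost without WT replicate 2 (0.62, adjusted p = 0.189) and without WT replicate 3 (0.74, adjusted p = 0.0507). Cd163, the scavenger receptor for haemoglobin, averaged 0.945 ± 0.376 in Ela1-Myc libraries and 0.294 ± 0.0522 in WT libraries, and Mertk, a receptor for the uptake of dying cells, averaged 0.850 ± 0.393 and 0.160 ± 0.0380 in the same groups (SD, n = 3 each). Msr1, the class A scavenger receptor, had 0.702, 1.97 and 2.03 in Ela1-Myc replicates 1 to 3, and 0.359, 0.0722 and 0 in WT replicates 1 to 3. These 3 genes failed the filter, lay apart between the groups on the deposited scale and overlapped on the scaled one. In the limma fit without a filter on the deposited scale, Mertk and Msr1 were called (adjusted p = 0.0318 and 0.0281) and Cd163 was not (adjusted p = 0.0605). In the scaled limma fit without a filter, Mertk, Msr1 and Cd163 were not called (adjusted p = 0.325, 0.210 and 0.982).

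The integrins and chemokine receptors mark monocytes, dendritic cells and recruited macrophages and were at low to moderate levels. Itgb2, the beta-2 chain that all leukocytes share, had 6.51, 25.6 and 19.1 in Ela1-Myc replicates 1 to 3, and 2.73, 0.986 and 0 in WT replicates 1 to 3. It was called on the deposited scale (log2 change 3.03 ± 0.55, adjusted p = 0.000403) but not after scaling (1.91 ± 0.79, adjusted p = 0.117), where WT replicate 1 lay above Ela1-Myc replicate 1. Its partner Itgam, the CD11b chain of macrophages and neutrophils, had 1.33, 3.78 and 5.38 in Ela1-Myc replicates 1 to 3, and 0.0935, 0 and 0.129 in WT replicates 1 to 3. The other partner, Itgax, the CD11c chain of dendritic cells and some macrophages, had 0.839, 3.71 and 4.32 in Ela1-Myc replicates 1 to 3 and was at 0 in WT. Both alpha chains were called on both scales, Itgam with adjusted p = 0.000255, and 0.0205 after scaling, and Itgax with adjusted p = 0.000473, and 0.0247 after scaling. The Itgam value may be uncertain, since 72.7% of its 40-base stretches also occur in the gene model Gm49368. Whether that model overlaps Itgam itself, or played a part in the deposited values, was not tested. Itgax shares 11.1% of its 40-base stretches, mainly with Itgad. Ccr2, the receptor by which inflammatory monocytes leave the bone marrow, had 1.17, 4.21 and 7.67 in Ela1-Myc replicates 1 to 3, and 0, 0.0203 and 0 in WT replicates 1 to 3. Cx3cr1, the fractalkine receptor of patrolling monocytes and resident macrophages, had 1.44, 1.15 and 5.03 in Ela1-Myc replicates 1 to 3 and was at 0 in WT. Both receptors were highest in Ela1-Myc replicate 3 and were called on both scales (adjusted p = 0.000349 for Ccr2 and 0.000792 for Cx3cr1, and 0.0213 and 0.0234 after scaling).

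The remaining markers followed the same direction. Ms4a7 and Ms4a6c, members of a family of membrane-spanning proteins, had 15.4, 31.4 and 39.0, and 2.74, 6.39 and 11.2, in Ela1-Myc replicates 1 to 3, and both were at 0 in every WT library. Aif1, the actin-binding protein Iba1, had 6.98, 19.1 and 22.0 in Ela1-Myc replicates 1 to 3 and was also at 0 in WT. Each of the 3 was lowest in Ela1-Myc replicate 1 and, on the deposited scale, highest in replicate 3. On the scaled values Ms4a7 and Aif1 were highest in replicate 2. Each was called on both scales, with adjusted p-values after scaling of 0.000733, 0.00550 and 0.00203. Cd14, the co-receptor for bacterial lipopolysaccharide, was above 0 in all 6 libraries and averaged 9.81 ± 1.99 in Ela1-Myc libraries and 1.22 ± 0.580 in WT libraries (SD, n = 3 each). Its log2 change was 2.30 ± 0.37 (adjusted p = 0.000185), and 1.16 ± 0.34 on scaled values (adjusted p = 0.0485).

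The 3 Ela1-Myc libraries differed among themselves in the same way for most markers. Ela1-Myc replicate 1 was the lowest for 32 of 34 genes and the highest for 0, while replicate 2 was the highest for 15 and replicate 3 for 19. Over all tested genes, replicate 1 was the lowest for 44.0% and the highest for 28.5%. Replicate 2 was the highest for 21.4% of tested genes and replicate 3 for 50.1%. After scaling, replicate 1 was the lowest for 30 of 34 markers and replicate 2 the highest for 26, beside 33.1% and 44.2% of tested genes. The median ratio of replicate 2 to replicate 1 was 2.19 over the markers (range 0.642 to 4.42) and 0.981 over all 8768 tested genes above 0 in the 3 libraries. For replicate 3 to replicate 1 the medians were 2.43 (range 1.21 to 6.55) for the markers and 1.20 for all genes. Each library is a single sample, so these ratios are descriptions without a test.

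**Figure D3:**
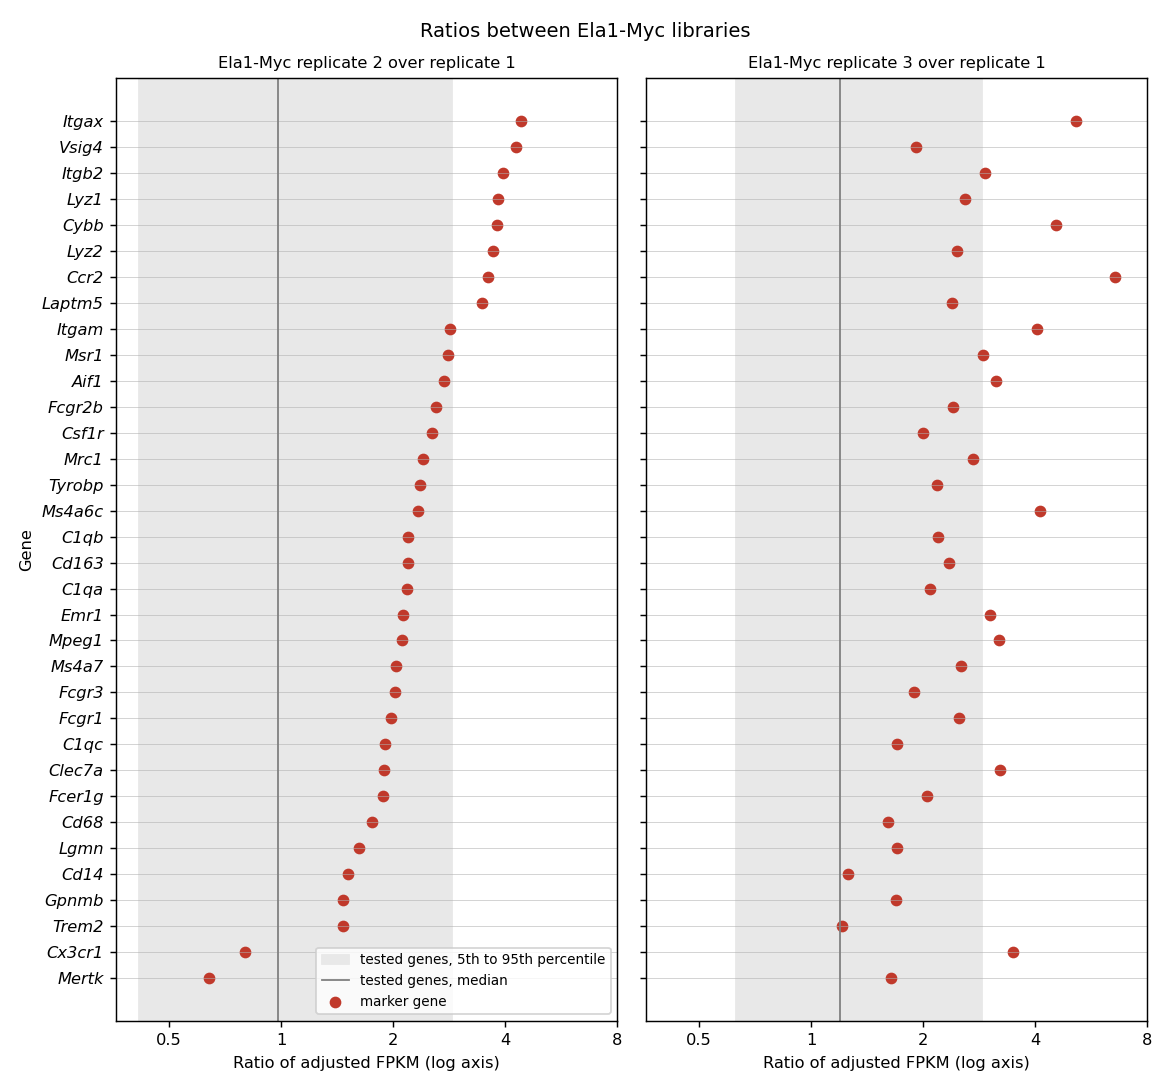
Ratio of the level in Ela1-Myc replicate 2 (left) and replicate 3 (right) to that in Ela1-Myc replicate 1 for each marker gene (log axis), with the median (line) and the 5th to 95th percentile (grey band) of all tested genes above 0 in the 3 libraries. All markers but Cx3cr1 and Mertk lie right of 1 on the left, and all 34 do so on the right, with Ccr2 farthest at 6.55.

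The size of this difference varied with the gene, here on the deposited scale and ordered by the ratio of the highest to the lowest Ela1-Myc library, whose median over the markers was 2.66. The smallest ratios were those of Trem2 (1.47), Cd14 (1.51), Gpnmb (1.70), Lgmn (1.70) and Cd68 (1.76). The C1q chains followed below the median, with 1.91 for C1qc, 2.18 for C1qa and 2.19 for C1qb. The largest ratios were those of Ccr2 (6.55), Itgax (5.15), Cybb (4.56), Cx3cr1 (4.38), Vsig4 (4.27), Ms4a6c (4.11) and Itgam (4.04). All of these 7 but Vsig4 were highest in replicate 3. Next came Itgb2 (3.93), Lyz1 (3.82), Lyz2 (3.70) and Laptm5 (3.47), which, like Vsig4, were highest in replicate 2. Cx3cr1 (0.798 times the replicate 1 level in replicate 2) and Mertk (0.642 times) were the only 2 of the 34 genes lowest in replicate 2.

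Set against C1qb within each library, the markers therefore did not keep fixed proportions. Ccr2 was 1.35%, 2.21% and 4.03% of the C1qb level in Ela1-Myc replicates 1 to 3, and Lyz2 was 219%, 369% and 246%. Csf1r stayed between 12.5% and 15.9% of C1qb in these libraries, and Cd163 between 0.589% and 0.630%. Trem2 was 11.2%, 6.95% and 6.20% of Tyrobp, its adaptor. Itgax was 62.96%, 98.1% and 80.3% of Itgam. The Ela1-Myc library with the lowest markers, replicate 1, had the highest RNA integrity number and the largest share of digestive enzymes of its group, and the part of either in the marker levels was not tested.

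Related genes of the same pathways were read from the same fit as counts. Of 13 tested growth factors and chemokines of myeloid cells, 13 were called higher on the deposited scale and 7 after scaling. Spp1, the secreted phosphoprotein osteopontin, had 107, 220.7 and 242 in Ela1-Myc replicates 1 to 3, and 0, 57.2 and 0 in WT replicates 1 to 3, and lost its call after scaling (adjusted p = 0.0723). Ccl8, a chemokine for monocytes, had 31.0, 69.0 and 54.3 in Ela1-Myc replicates 1 to 3, and 0.512, 0 and 0 in WT replicates 1 to 3, and was called on both scales (adjusted p = 0.00142 after scaling). Ccl5, a chemokine for T cells and monocytes, had 10.04, 118 and 41.8 in Ela1-Myc replicates 1 to 3, and 0, 0.8998 and 0 in WT replicates 1 to 3, and was likewise called on both scales (adjusted p = 0.0153 after scaling). In these genes the groups did not overlap. Mif, an inhibitor of macrophage migration found in most cells, had 575, 514 and 285 in Ela1-Myc replicates 1 to 3, and 4.15, 139 and 18.1 in WT replicates 1 to 3, and was called on the deposited scale only (adjusted p = 0.00338, and 0.0835 after scaling). Of the 5 subunits of the phagocyte oxidase other than Cybb, 4 were called higher and 3 after scaling. Cyba, the partner of Cybb in the membrane, had 34.9, 94.3 and 64.6 in Ela1-Myc replicates 1 to 3, against 2.05, 1.29 and 0 in WT replicates 1 to 3, and the subunit not called was Rac1, a small GTPase of all cells (adjusted p = 0.0907).

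Of 16 tested genes that signal behind these adaptors and integrins, 15 were called higher on the deposited scale and 4 after scaling. Among the 4 most abundant of them, Sirpa, the inhibitory receptor for CD47, had 7.71, 11.6 and 20.04 in Ela1-Myc replicates 1 to 3, and 0.944, 0.0944 and 0 in WT replicates 1 to 3, and was called after scaling (adjusted p = 0.0173). The scaled log2 change was 1.60 for the phosphatase Ptpn6 (adjusted p = 0.204), 1.37 for the cytoskeletal talin Tln1 (adjusted p = 0.168) and -0.75 for the adaptor Pik3ap1 (adjusted p = 0.150), none of them called. Of 19 lysosome genes 16 were called higher and 7 after scaling, and of 16 complement genes outside C1q 15 were called higher and 5 after scaling. Psap, the precursor of the saposins that assist lipid breakdown, had 143, 280 and 293 in Ela1-Myc replicates 1 to 3, and 0, 20.6 and 0 in WT replicates 1 to 3 (adjusted p = 0.0221 after scaling). Ctsd, the lysosomal protease cathepsin D, had 262, 316 and 281 in Ela1-Myc replicates 1 to 3, and 31.4, 129 and 33.9 in WT replicates 1 to 3, and lost its call after scaling (adjusted p = 0.188). Both lysosome genes lay apart between the groups. C4b, a component of the classical pathway that C1q starts, had 23.6, 44.3 and 38.8 in Ela1-Myc replicates 1 to 3, and 4.20, 0 and 0 in WT replicates 1 to 3, and was called on both scales (adjusted p = 0.0486 after scaling). C3, on which all complement pathways meet, had 89.6, 188 and 173 in Ela1-Myc replicates 1 to 3, and 36.5, 18.4 and 0 in WT replicates 1 to 3, and was called on the deposited scale only (adjusted p = 0.00526, and 0.221 after scaling). Of 9 tested genes of alternative activation, 9 were called higher and 1 after scaling, and of 3 of inflammatory activation, 3 and 1. Retnla, the most abundant of the alternative list, had 26.0, 90.3 and 55.1 in Ela1-Myc replicates 1 to 3, and 24.8, 15.7 and 4.65 in WT replicates 1 to 3, with a scaled log2 change of 0.48 (adjusted p = 0.674). Cxcl10, the most abundant of the inflammatory list, had 3.50, 14.3 and 12.7 in Ela1-Myc replicates 1 to 3, and 0.747, 0 and 0 in WT replicates 1 to 3 (adjusted p = 0.0375 after scaling). The shares of all tested genes called, 70.2% and 17.1% after scaling, apply to these counts too. Ccl8, Ccl5, Sirpa and Cxcl10 had a WT mean under 1 and passed the filter through their Ela1-Myc values. They had to be higher, so their calls are no independent support.

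Markers of other cell types were called higher in part. On the deposited scale, 13 of 13 tested pan-leukocyte genes, 10 of 10 T and NK cell genes, 8 of 9 B and plasma cell genes, 4 of 5 dendritic cell genes and 1 of 5 neutrophil genes were called higher, beside 70.2% of all tested genes. After scaling 1, 1, 0, 1 and 0 of them were called higher, beside 17.1% of all tested genes, and 1 dendritic cell gene was called lower. Of the fibroblast genes 9 of 10 were called higher and 6 after scaling, and of the endothelial genes 8 of 12, a share below that of all tested genes, and 0 after scaling. The summed level of 16 T and NK cell genes was 10.2, 91.1 and 52.9 in Ela1-Myc replicates 1 to 3, and 9.59, 0 and 0 in WT replicates 1 to 3. The summed level of 12 B and plasma cell genes was 33.2, 313 and 254 in Ela1-Myc replicates 1 to 3, and 77.8, 0.486 and 0.0570 in WT replicates 1 to 3. These 2 lists differed more between the Ela1-Myc libraries than the markers did. The median ratio of replicate 2 to replicate 1 was 10.9 for T and NK cell genes and 9.45 for B and plasma cell genes. For the markers it was 2.19. It was 5.67 for dendritic cell genes, 5.50 for pan-leukocyte genes and 4.65 for neutrophil genes, also above the markers. For fibroblast genes it was 1.71 and for endothelial genes 1.14. These ratios are from single libraries and were not tested.

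**Figure D4:**
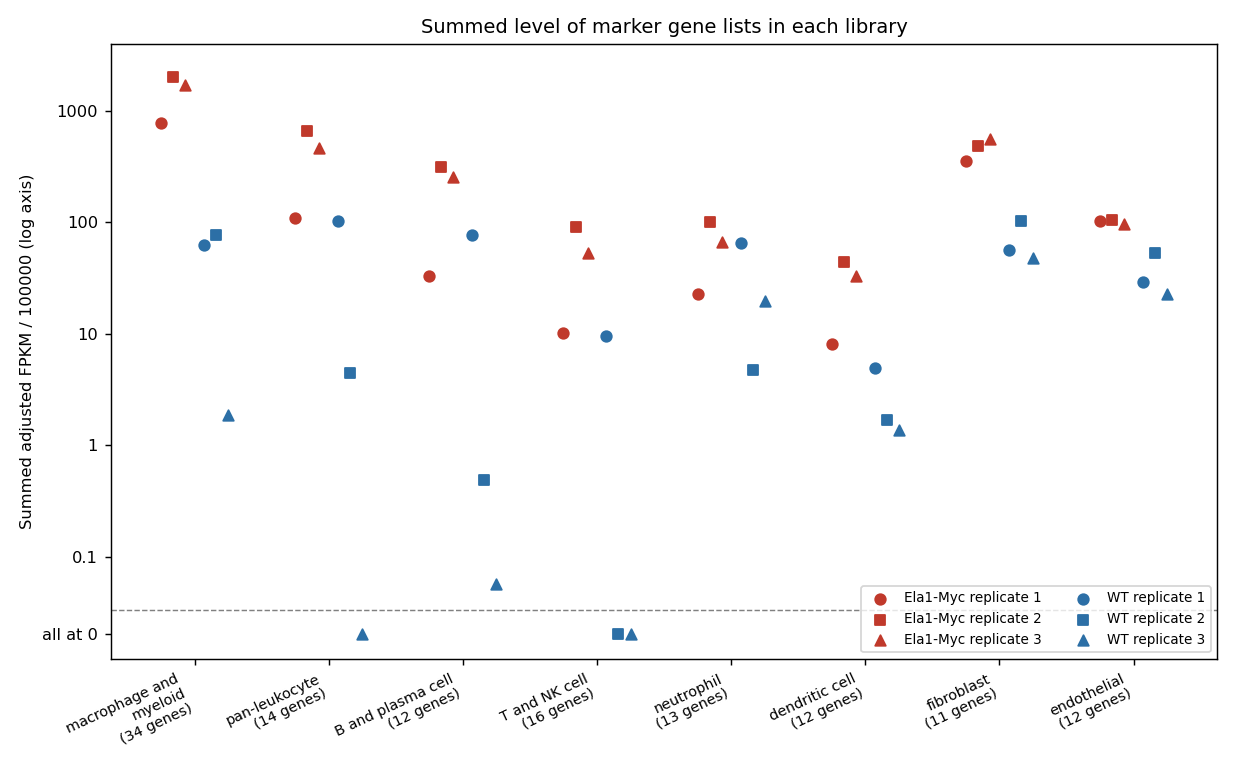
Summed level (deposited adjusted FPKM divided by 100000, log axis) of the macrophage and myeloid markers and of 7 lists of other cell types, in each Ela1-Myc library (red) and each WT library (blue), with symbols marking replicates 1 to 3 and sums of 0 below the dashed line. WT replicate 1 lies near or above Ela1-Myc replicate 1 for the pan-leukocyte, B and plasma, T and NK and neutrophil lists, but at 62.98 against 774 for the macrophage and myeloid markers. The marker sum of WT replicate 1 includes 16 genes listed at 0, which may be failed estimates.

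WT replicate 1 stood apart from the other WT libraries in these lists. The pan-leukocyte sum was 109, 662 and 469 in Ela1-Myc replicates 1 to 3, and 104, 4.41 and 0 in WT replicates 1 to 3. Cd52, a surface glycoprotein of leukocytes, had 41.0, 277 and 183 in Ela1-Myc replicates 1 to 3, and 45.8, 0.283 and 0 in WT replicates 1 to 3. On the deposited scale WT replicate 1 lay close to Ela1-Myc replicate 1 for both, and far above the other 2 WT libraries. On the scaled values the pan-leukocyte sum was 66.4 in Ela1-Myc replicate 1 and 249.9 in WT replicate 1. Cd79a, a signalling chain of the B cell receptor, had 7.87, 68.2 and 39.7 in Ela1-Myc replicates 1 to 3, and 22.2, 0.419 and 0 in WT replicates 1 to 3. S100a8, an abundant protein of neutrophils, had 10.2, 45.1 and 28.04 in Ela1-Myc replicates 1 to 3, and 29.5, 1.66 and 6.99 in WT replicates 1 to 3. Ptprc, the leukocyte antigen CD45, had 2.56, 17.2 and 17.1 in Ela1-Myc replicates 1 to 3, and 2.28, 0 and 0 in WT replicates 1 to 3. In WT replicate 1, then, on the deposited scale, genes of lymphocytes and neutrophils were near the level of Ela1-Myc replicate 1 or above it. C1qa, C1qb, C1qc, Cd68, Tyrobp, Emr1, Lgmn, Ms4a7 and Mpeg1 were listed at 0 in that library. These zeros may be failed estimates, since Gapdh was also at 0 there, so they do not show that these transcripts were absent. The markers above 1 there were 9 of 34, among them the 5 genes Lyz2, Fcer1g, Laptm5, Itgb2 and Csf1r at the highest levels. What other cells contribute to the marker levels was not tested.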

How the data were processed

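RNA sequencing of pancreas was deposited by the authors as 1 adjusted FPKM value per gene and library, per the file headers, with GRCm38 (mm10), TopHat2 2.0.4 and Cufflinks 2.0.2 named among the tools, per the submitters' processing notes. Neither labels nor headers say how FPKM was adjusted, and depth is unknown, so no counting interval is given. All values were divided by 100000. The 8802 genes averaging 1 or more across the 6 libraries entered a two-sided limma fit (3.58.1, R 4.3.3) of 3 Ela1-Myc against 3 WT libraries. Values were log2(value + 1) with a variance trend on mean level. Calls are at 0.05 after Benjamini-Hochberg adjustment across all tested genes. This pseudocount understates the change of low genes, and listed zeros entered as values. The marker genes, related lists and tests were chosen with earlier results of these data known. All 34 markers are named, and from each other list at most the 4 genes with the highest mean. Figures were drawn with matplotlib 3.10.9.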

Additional observations from a re-analysis of the deposited data

How the results depend on the processing

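On the deposited scale 6182 of all tested genes were called higher and 21 lower in Ela1-Myc pancreas. The counts were 1504 and 625 after median-of-ratios scaling, 996 and 1758 after quantile normalization, 1927 and 353 with digestive enzymes left out, 3369 and 6 with a pseudocount of 1 before the division, 1742 and 8 with a filter at a mean of 5, 647 and 685 for scaled genes above 0 in all libraries, and 1763 and 552 for scaled genes without a filter, a setting added after seeing the data. Array weights gave 132 lower calls. Leaving out each library in turn gave 3937 to 7441 higher and 4 to 67 lower calls. On scaled values the higher calls without Ela1-Myc replicates 1 to 3 were 1102, 530 and 429 of 8564, 8431 and 7947 genes. Without WT replicates 1 to 3 they were 1741, 1942 and 945 of 9314, 9177 and 9160 genes. The lower calls were 514, 161 and 140, and 606, 546 and 353, in the same order. Of the markers, 31 were called higher and 0 lower; the higher count was 17 after quantile normalization, 18 with the pseudocount of 1 before the division, 19 with the filter at 5 (all 19 left in that fit), 2 for scaled genes above 0 in all libraries and 19 for scaled genes without a filter. Leaving out each library gave 27 to 31 higher calls. On scaled values they were 23, 14 and 13 of 31, 29 and 27 markers without Ela1-Myc replicates 1 to 3. Without WT replicates 1 to 3 they were 29, 21 and 18 of 31, 32 and 32 markers. Only Vsig4 turned its direction in any setting run: -0.53 under quantile normalization, -0.27 on scaled values without WT replicate 2 and -0.069 without WT replicate 3. The cause was not tested. No paired analysis was possible because the labels number no replicates, and the numbers used here follow accession order and pair no libraries. Depth is unknown, so a listed 0 sets no limit on a gene's level.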
